A study of Mus musculus with 9 samples.

Results

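Protogenin (Prtg), neogenin (Neo1), the netrin receptor Dcc and the related receptors Igdcc3 and Igdcc4 form 1 family of cell surface proteins, and their transcripts were followed here over 9 mouse arrays. The family was taken as every probe set annotated to exactly 1 gene symbol among these 5. That gave 18 probe sets and 5 genes, of 34945 probe sets and 18193 genes with 1 symbol on the array. The family was chosen because of the fall of Prtg between E8.5 and E13.5, which was already known from these arrays, so the Prtg values against E8.5 are given as a description without a test.

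Total RNA came from cells taken by laser microdissection as neural crest or its derivatives, in a study of DNA repair genes in mouse development. The E8.5 group was cells of embryos at the time of neural tube closure, the E13.5 group was from dorsal root ganglia of embryos, and the P90 group was from the adrenal medulla of adult mice aged 3 months. Each stage had 3 arrays, labelled as biological replicates, and the labels name no treatment or mutation in any group. The labels give no strain or sex, no marker by which cells were picked, and no number of animals behind a sample, so that p-values measure the spread between these samples and would be too small where samples shared an animal. Stage and tissue change together, so their parts in any difference cannot be told apart.

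The members share a layout of immunoglobulin domains followed by fibronectin type III domains, a membrane span and a cytoplasmic tail. Dcc is the classical attractive receptor for netrin-1 on growing axons, and neogenin binds both netrins and the repulsive guidance molecules (RGMs). Both can be cut by membrane proteases and are described as dependence receptors, which signal cell death when their ligand is absent. Protogenin is known as a receptor of the early neural tube and mesoderm that holds back neuronal differentiation. Igdcc3 (also called Punc) and Igdcc4 (also called Nope, from neighbour of Punc) are receptors of the embryo for which no guidance ligand is established.

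In the RefSeq annotation of GRCm38.p6, Prtg, Neo1, Igdcc3 and Igdcc4 all lie on chromosome 9, and Igdcc4 and Igdcc3 are direct neighbours with no protein-coding gene between them. The regions around the annotated starts of Prtg, Igdcc3 and Igdcc4 are shown because these are the members whose signals moved between stages, the first 2 one way and the third, a neighbour of the second, the other way. Each runs 5′ to 3′ on the strand of the gene, from 250 bases before to 50 bases after the start, as RefSeq gives it on GRCm38.p6. Capitals mark every GC box (GGGCGG, or CCGCCC on the other strand) and every CCAAT box (CCAAT, or ATTGG on the other strand).
Prtg, chr9:72807024-72807323, plus strand: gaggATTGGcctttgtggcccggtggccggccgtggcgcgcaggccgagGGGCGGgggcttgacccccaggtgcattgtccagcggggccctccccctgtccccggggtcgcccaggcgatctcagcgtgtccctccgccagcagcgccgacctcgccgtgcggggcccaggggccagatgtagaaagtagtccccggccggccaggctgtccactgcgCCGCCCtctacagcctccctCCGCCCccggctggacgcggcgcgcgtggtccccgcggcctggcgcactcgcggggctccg
Igdcc3, chr9:65140904-65141203, plus strand: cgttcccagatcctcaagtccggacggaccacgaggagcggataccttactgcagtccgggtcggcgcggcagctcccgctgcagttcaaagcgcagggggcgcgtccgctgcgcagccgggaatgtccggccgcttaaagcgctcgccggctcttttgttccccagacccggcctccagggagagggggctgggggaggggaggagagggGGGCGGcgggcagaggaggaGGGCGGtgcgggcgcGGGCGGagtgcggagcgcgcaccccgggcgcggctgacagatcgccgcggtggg
Igdcc4, chr9:65101236-65101535, plus strand: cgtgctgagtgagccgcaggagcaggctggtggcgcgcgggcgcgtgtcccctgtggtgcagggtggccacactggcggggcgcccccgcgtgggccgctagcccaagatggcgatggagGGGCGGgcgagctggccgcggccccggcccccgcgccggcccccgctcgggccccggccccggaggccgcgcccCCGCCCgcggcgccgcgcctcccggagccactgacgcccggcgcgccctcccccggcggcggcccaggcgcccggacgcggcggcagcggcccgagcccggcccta
The Prtg region held 3 GC boxes and 1 CCAAT box, the Igdcc3 region 3 GC boxes and no CCAAT box, and the Igdcc4 region 2 GC boxes and no CCAAT box. In the Prtg region 1 GC box and the CCAAT box stood upstream, and the other 2 GC boxes were close to the start, while the 3 GC boxes of Igdcc3 stood close together near its start. Of 32851 mouse promoter regions of this length, 35.7% held a GC box and 37.4% a CCAAT box on either strand. The TATA box letters TATAAA, found in 13.6% of the regions, were in none of the 3. Their GC content was 76.7% for Prtg, 73.3% for Igdcc3 and 84.7% for Igdcc4, against a median of 52.7%, and they held 35, 38 and 49 CpG dinucleotides against a median of 7. A match of letters is a description of the sequence and not a binding site.

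The values are signals per probe set on a linear scale, and a signal of 26.1, the 40th percentile of all values, was the level a probe set had to pass on at least 3 arrays to be tested. Each stage also needed at least 2 values that were not empty. Of the 18 family probe sets, 14 passed: all 5 of Neo1, all 3 of Igdcc3, 3 of 4 of Igdcc4, 2 of 3 of Dcc and 1 of 3 of Prtg. Of these, 2 passed through their high stage: Igdcc3 1423496_a_at was above that level on the 3 E8.5 arrays alone, and Prtg 1438410_at on those and 1 P90 array. Signals of different probe sets are not on a common scale, so each is compared between arrays and never with another probe set. Changes are differences of log2(signal + 16), which understates the change of dim genes. They come from 1 limma fit of all 9 arrays over 13748 genes, each represented by its brightest probe set, with Benjamini-Hochberg adjustment over all of them, and a gene is called where its adjusted p is under 0.05.

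Median array signals were 38.3 to 48.2, and the log2 signals correlated at r = 0.877 to 0.986 within stages and 0.809 to 0.910 between stages, over probe sets. Among the control probe sets of Actb, the signal at the 3′ end of the transcript exceeded that at the 5′ end by 0.85 to 6.69 on the log2 scale, a difference that grows as RNA degrades. It was highest on E13.5 replicate 2 and lowest on E13.5 replicate 1. Marker lists were summed over genes with a probe set free of empty cells, using the brightest, with no filter on low signals. The chromaffin markers (7 of 9 summed, Chga, Chgb, Dbh and Pnmt among them) gave 12771 to 26247 at P90, 1487 to 4053 at E13.5 and 456 to 479 at E8.5. The sensory neuron markers (6 of 10 summed) gave 4635 to 7001 at E13.5, 525 to 3221 at P90 and 266 to 425 at E8.5. Isl1 was the highest of them at E13.5, with 3153 to 5244, and read 88.9 to 1876 at P90. Ntrk3 overlapped between all stages, and Prph read 82.0 to 101 at E13.5 and 88.5 to 129 at P90. Neural crest markers (7 of 8) gave 2712 to 4631 at E8.5, 1740 to 2289 at E13.5 and 836 to 1645 at P90. The E8.5 arrays also carried neural tube markers (5 of 8 summed, 3901 to 4133, with Sox2 highest, against 163 to 1492 on the others), surface and gut epithelium markers (4 of 6, 912 to 2511, with Krt8 and Krt18, against 79.1 to 194), somite markers (6 of 8, 903 to 1551, against 344 to 580) and red cell markers (2 of 6, 511 to 3588, with Hbb-bh1, against 21.0 to 744). Of the somite list, Dll1 read 486 to 526 at E8.5 and 233 to 422 on the other arrays, and Tbx6 and Msgn1 at E8.5 overlapped a later stage. Glia markers (3 of 6) were highest at E13.5, with 1366 to 5221. Macrophage markers (5 of 6) gave 1232 to 1816 at E8.5, 1890 to 2396 at E13.5 and 2324 to 2994 at P90. Adrenal cortex markers (2 of 8) spanned 17.6 to 80.5 over all arrays. The adrenal cortex sum rests on Cyp11a1 and on Nr5a1, which read at most 12.4. Every probe set of the other genes in that list had an empty cell, so the sum does not show how much cortex was captured. P90 replicate 1 stood apart from the other P90 arrays in its Actb difference (1.36, against 4.03 and 3.47) and in marker sums. It had the lowest chromaffin sum (12771, against 25234 and 26247) and sensory neuron sum (525, against 2243 and 3221), and the highest mesenchyme sum (3 of 6 summed; 3072, against 412 and 781) and endothelium sum (4 of 6; 3381, against 525 and 526).

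**Figure D1:**
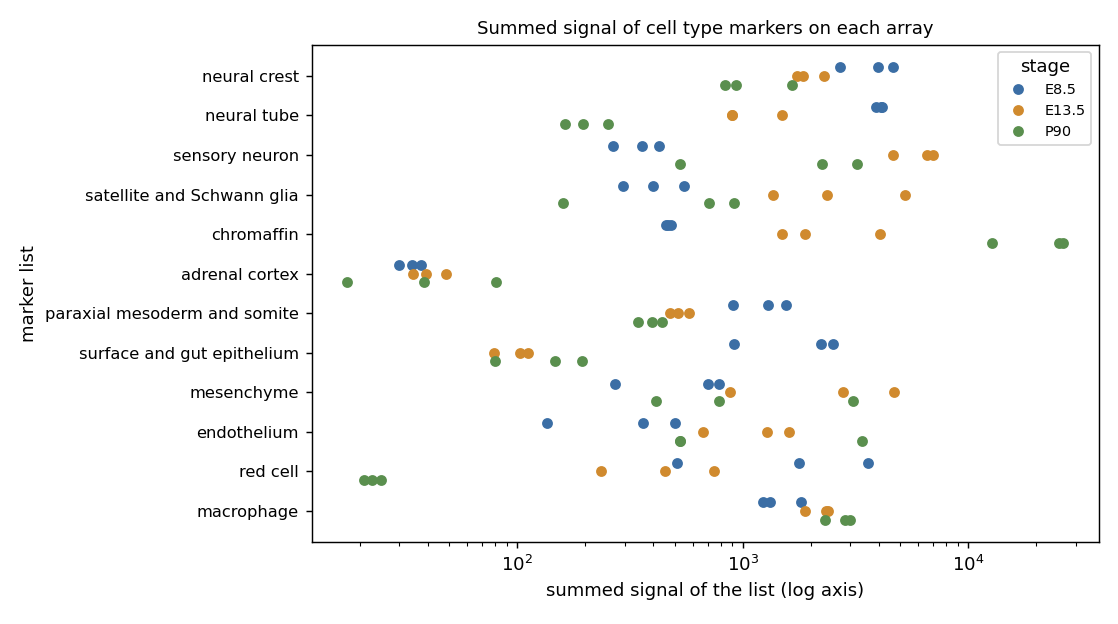
Summed signal of each marker list on each array (log axis), with 1 point per array coloured by stage. The neural tube sum of the E8.5 arrays (3901 to 4133) lies above that of every other array, and 1 P90 array lies away from the other P90 arrays in the endothelium, mesenchyme, sensory neuron and chromaffin lists.

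Between E8.5 and E13.5, protogenin and Igdcc3 went down together, Igdcc4 went up, and neogenin and Dcc showed no call in either direction. Over the family, 1 gene was called higher and 2 lower, Prtg included, where 16.5% of all genes tested were called (9.27% higher and 7.22% lower). The arrays of the 2 stages did not overlap for 3 of the 5 genes, Prtg included, against 35.8% of all genes. The Prtg call and its lack of overlap belong to the fall that led to the choice of the family, and nothing is read from them.

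Prtg signals on probe set 1438410_at were 3206, 3356 and 4029 on the E8.5 arrays. At E13.5 the same probe set gave 8.99, 13.7 and 14.1, and at P90 it gave 20.0, 24.7 and 38.3. Every E8.5 array lay far above every other array, and all E13.5 and 2 of 3 P90 arrays were under the signal of 26.1. The stage means, from the youngest to the oldest, were 3530 ± 438, 12.3 ± 2.84 and 27.7 ± 9.53 (SD, n = 3 each). As a description, the log2 change was -6.97 from E8.5 to E13.5, the lowest of all 13748 genes, and -6.36 from E8.5 to P90, the fifth lowest. In RNA of captured tissue, fewer cells with a transcript and less of it per cell cannot be told apart.

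The P90 arrays of Prtg all lay above the E13.5 arrays, by 0.61 ± 0.29 on the log2 scale (SE; 95% interval -0.03 to 1.25), which did not pass the test (limma, adjusted p = 0.264). The other 2 Prtg probe sets had no value on any E8.5 array and were not tested. Probe set 1456329_at read 31.7, 71.3 and 132 at E13.5 and 10.9, 41.6 and 23.0 at P90. Probe set 1438333_at was empty on the same 3 arrays and on P90 replicate 3, and its 5 values elsewhere were 2.88 to 10.9. The fall of Prtg thus rests on 1 probe set, and the other 2 have no E8.5 value to set beside it. Over the array as a whole, 56 probe sets with 1 symbol were empty on all E8.5 arrays, and the deposited table gives no reason. Of the 34 genes among them with another probe set that had no empty cell, that other probe set was highest at E8.5 in 29 (85.3%), against 38.3% of all probe sets with no empty cell. Prtg itself is among these 29, so the count says nothing more about Prtg. The share was also high for probe sets empty on all E13.5 arrays (76.4%, against 27.8%) or all P90 arrays (79.2%, against 33.9%). The shares are per gene on its brightest such probe set, and those set against them are per probe set.

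**Figure D2:**
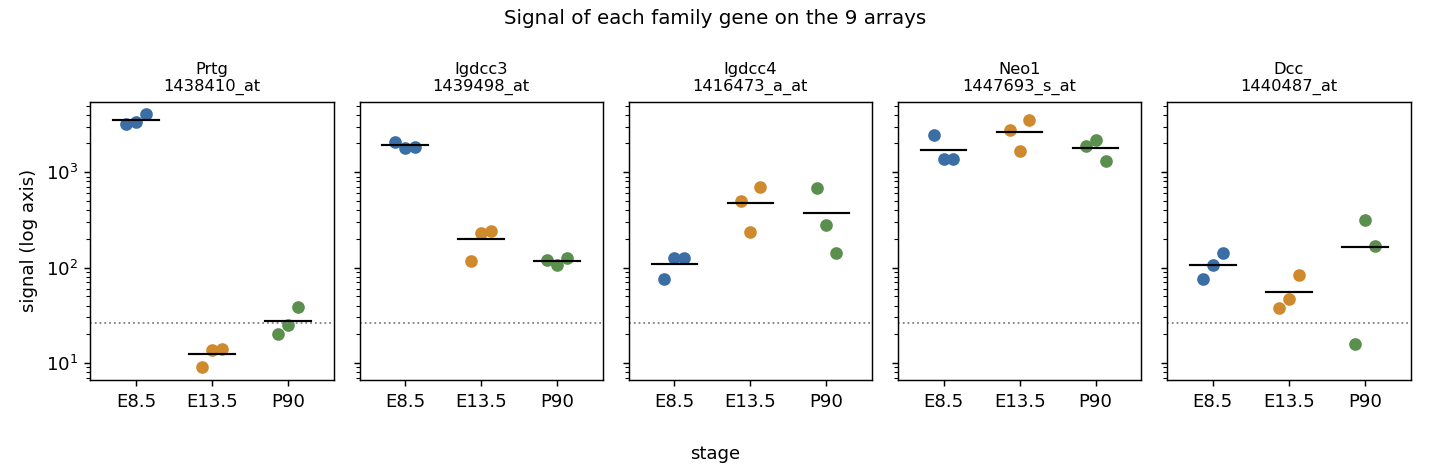
Signal of each family gene on its brightest probe set (log axis), by stage, with 1 point per array in replicate order from left to right and the stage mean as a line. The dotted line is the signal of 26.1 used in the filter; Prtg and Igdcc3 are high on the E8.5 arrays, Igdcc4 is low there, and Neo1 and Dcc overlap between stages.

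Igdcc3 gave 2093, 1786 and 1845 on the E8.5 arrays with probe set 1439498_at. The E13.5 arrays gave 118, 233 and 241, and the P90 arrays 121, 105 and 125. All E8.5 arrays were above all others, and the E13.5 and P90 arrays overlapped. The E13.5 signal was lower by a log2 change of -3.23 ± 0.36 (SE, limma, adjusted p = 0.000181), and the P90 signal by -3.85 ± 0.36 (adjusted p = 2.44e-05). From the low end, Igdcc3 ranked 41 and 108 among 13748 genes in these 2 comparisons, which share the E8.5 arrays. P90 differed from E13.5 by -0.62 (95% interval -1.41 to 0.17, adjusted p = 0.375).

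The second Igdcc3 probe set, 1423496_a_at, had the same pattern, with 497, 304 and 332 at E8.5, 2.83, 7.90 and 1.90 at E13.5 and 1.40, 1.43 and 1.62 at P90. The last values were next to the floor of 1 of the deposited signals. This probe set passed the filter through its E8.5 arrays alone, so its log2 changes from the first stage to the second (-4.26) and to the last (-4.46) are a description without a test. The third, 1444981_at, read 144, 99.5 and 100 at E8.5, 77.3, 100 and 86.3 at E13.5 and 82.3, 87.1 and 64.2 at P90. Over the 24013 probe sets tested singly, it was not called against E8.5 at E13.5 (-0.32, adjusted p = 0.507) or at P90 (-0.47, adjusted p = 0.251), though all P90 arrays lay below all E8.5 arrays. Of the 2 Igdcc3 probe sets above the filter level at every stage, 1 was thus called lower and the other, with a much smaller range, was not. Summed markers of the neural crest, of the neural tube, of epithelium and of the somite were also higher on every E8.5 array than on any other, as given above, and their part in the Prtg and Igdcc3 values was not tested. Single genes could differ from their sum. Of the neural crest list, Sox10 read 232 to 315 at E8.5 and 394 to 543 at E13.5. Tfap2a, Snai1 and Ets1 overlapped a later stage, while Foxd3, Pax3 and Sox9 were higher on every E8.5 array. The other lists also held genes that overlapped, such as Sox3, Foxa2, Tcf15, Tbx6 and Msgn1.

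Igdcc4 moved the other way. Probe set 1416473_a_at gave 76.0, 127 and 127 on the E8.5 arrays, 500, 235 and 696 on the E13.5 arrays, and 685, 279 and 143 on the P90 arrays. The lowest array of each later stage was above the highest E8.5 array, while E13.5 and P90 spanned much the same range. The E13.5 signal was higher by 1.87 ± 0.55 on the log2 scale (SE, limma, adjusted p = 0.0379). The P90 signal was higher by 1.38 ± 0.55, which did not pass (adjusted p = 0.0956). P90 and E13.5 differed by -0.49 (95% interval -1.70 to 0.71, adjusted p = 0.688).

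The second probe set, 1416474_at, gave 28.0, 37.8 and 32.7 at E8.5, 187, 73.8 and 229 at E13.5 and 232, 123 and 64.4 at P90. It ordered the arrays within E13.5 and within P90 as the first did. Among probe sets tested singly it was higher at E13.5 by 1.76 ± 0.46 (adjusted p = 0.0251) and at P90 by 1.53 ± 0.46 (adjusted p = 0.0360). The remaining 2 were dim. Probe set 1458958_at read 23.3 to 50.2 over the 9 arrays and was not called in any comparison, and 1443272_at read 9.68 to 34.8 and did not pass the filter.

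The Igdcc4 call at E13.5 was close to the threshold. It was lost without any 1 of the E8.5 arrays (adjusted p 0.0883 to 0.136), without E13.5 replicate 1 (0.0839) or 3 (0.152) and without P90 replicate 2 (0.0542). Markers of other cell types differed between the same arrays. The 3 P90 arrays had mesenchyme sums of 3072, 781 and 412 and endothelium sums of 3381, 526 and 525, in replicate order, beside Igdcc4 signals of 685, 279 and 143. The E13.5 arrays had mesenchyme sums of 4686, 877 and 2780 and endothelium sums of 1611, 669 and 1276, beside 500, 235 and 696. The E8.5 arrays, where Igdcc4 was lowest, had mesenchyme sums of 271, 788 and 704 and endothelium sums of 135, 361 and 503. The part of these cells in the Igdcc4 values was not tested. The lowest E13.5 array was the one with the Actb difference of 6.69, and without it the rise was 2.30 (adjusted p = 0.0155). With the Actb difference as a covariate the change was 1.99 (adjusted p = 0.00502) at E13.5 and 1.35 (adjusted p = 0.0280) at P90. Without P90 replicate 1 the P90 change was 0.81 (adjusted p = 0.251).

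Neogenin was well above the filter level at all stages and was not called in any comparison. Its brightest probe set, 1447693_s_at, gave 2442, 1363 and 1375 at E8.5, 2744, 1658 and 3521 at E13.5 and 1871, 2192 and 1317 at P90. The 3 stages overlapped. The change was 0.60 from E8.5 to E13.5 (95% interval -0.28 to 1.47, adjusted p = 0.374), -0.52 from E13.5 to P90 (-1.39 to 0.36, adjusted p = 0.531) and 0.08 from E8.5 to P90 (-0.79 to 0.95, adjusted p = 0.916). These intervals leave room for changes of more than 1 log2 unit in the first 2 comparisons, so the values do not show that neogenin was level.

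The other Neo1 probe sets did not share 1 direction. Probe set 1434931_at read 800 to 955 at E8.5, 422 to 1824 at E13.5 and 905 to 1209 at P90, and its lowest value was on E13.5 replicate 2. Probe set 1447694_x_at read 128, 270 and 327 at E8.5, 84.7, 240 and 134 at E13.5 and 289, 333 and 257 at P90. Its P90 arrays all lay above its E13.5 arrays, by 0.97 on the log2 scale, which did not pass after adjustment (unadjusted p = 0.0488 and adjusted p = 0.252 by limma). Probe sets 1444295_at and 1440789_at read 34.8 to 166 and 52.4 to 647 over the arrays with a value, with overlap between all stages, and the second was empty on E13.5 replicate 2. Between E8.5 and E13.5, 2 of the 5 Neo1 probe sets were higher and 3 lower on average, and none was called.

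Dcc was dim and uneven among replicates. Probe set 1440487_at gave 75.7, 106 and 141 at E8.5, 38.1, 46.7 and 83.2 at E13.5 and 15.9, 314 and 169 at P90. The P90 group thus held both the lowest and the 2 highest arrays of all 9. The change was -0.79 from E8.5 to E13.5 (95% interval -2.27 to 0.69, adjusted p = 0.502), 0.84 from E13.5 to P90 (-0.63 to 2.32, adjusted p = 0.550) and 0.05 from E8.5 to P90 (-1.43 to 1.53, adjusted p = 0.970). A second probe set, 1441572_at, had its lowest array in the same place, with 17.9, 78.4 and 114 at E8.5, 18.9, 28.9 and 32.9 at E13.5 and 11.6, 128 and 65.8 at P90. The third, 1422162_at, read 12.2 to 34.2 and did not pass the filter.

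P90 replicate 1, the lowest Dcc array, is the one with the lowest chromaffin and sensory neuron sums and the highest mesenchyme and endothelium sums of its stage. It also had the lowest Actb difference of its stage (1.36, against 4.03 and 3.47). Without it, Dcc was called higher at P90 than at E13.5 (1.83 ± 0.39, limma, adjusted p = 0.0117), and the P90 change against E8.5 was 1.04 (adjusted p = 0.0739). Among the P90 arrays it was lowest for Dcc and highest for Igdcc4. What this array's cell make-up and its RNA quality each contributed was not tested.

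**Figure D3:**
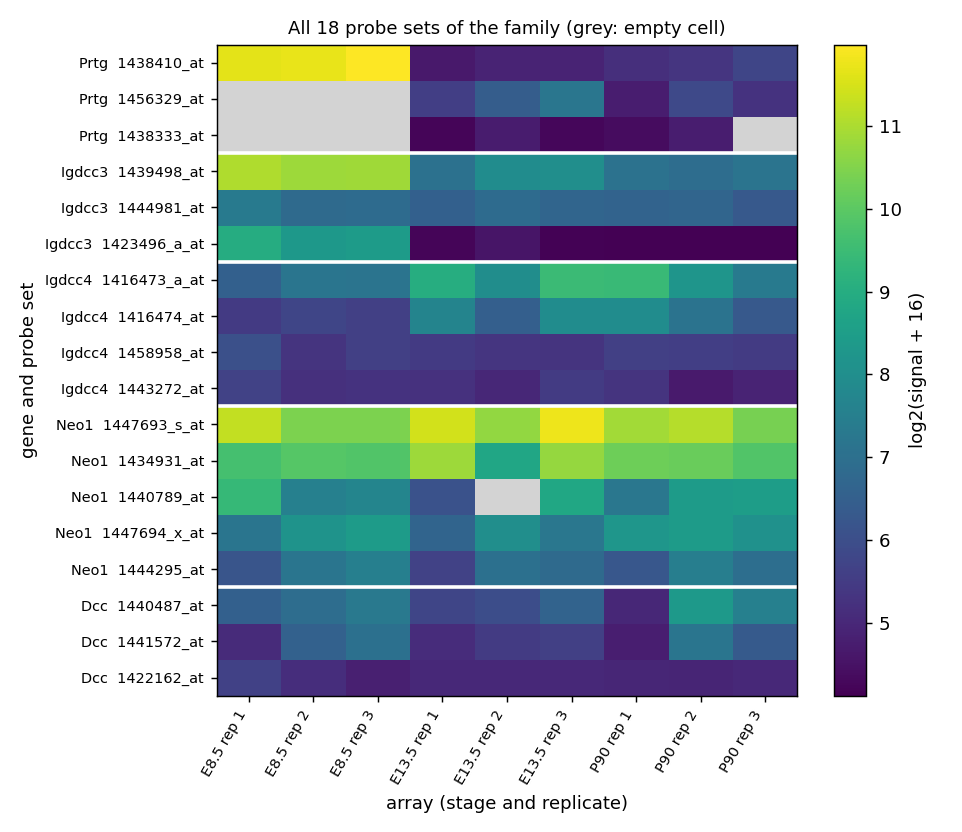
Log2(signal + 16) of all 18 family probe sets (rows, grouped by gene) on the 9 arrays (columns), with empty cells in grey. Rows are to be read across arrays and not against each other; 2 Prtg rows are grey on all 3 E8.5 arrays, and the 2 brighter Igdcc4 rows are darkest there.

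Over the family as a whole, no gene was called between E13.5 and P90. The count was 0 of 5, and also 0 at an unadjusted p under 0.05, where 9.48% of all genes were called (3.54% higher and 5.94% lower). It was 1 of 5, Dcc, without P90 replicate 1. For 1 of the 5 genes, Prtg, the arrays of these stages did not overlap, against 23.5% of all genes. Between E8.5 and P90, Prtg was lower and is again left without a test. Of the other 4 genes Igdcc3 alone was called, as lower, where 23.3% of all genes were called (10.9% higher and 12.5% lower), and it was also called without P90 replicate 1. Groups did not overlap for 3 of the 5, Prtg included, against 43.9%. The median of all genes was 0.02, -0.05 and 0.00 for the change up to E13.5, the change from there to P90 and the change over the whole span.

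By probe set, 5 of 14 were called at E13.5 against E8.5 (2 higher and 3 lower), where 15% of all probe sets were (7.99% higher and 6.98% lower). The count was 4 of 14 at P90 against E8.5 (1 higher and 3 lower), where 20.8% were (9.57% higher and 11.2% lower). Nothing is read from these 2 counts: in each, 2 of the lower calls were Prtg 1438410_at, which chose the family, and Igdcc3 1423496_a_at, which passed the filter through its E8.5 arrays alone. The remaining calls were Igdcc3 1439498_at as lower and, as higher, both brighter Igdcc4 probe sets at E13.5 and 1416474_at at P90. At P90 against E13.5 the count was 0 of 14, with 1 at an unadjusted p under 0.05, where 7.48% were called by limma (2.88% higher and 4.6% lower).

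**Figure D4:**
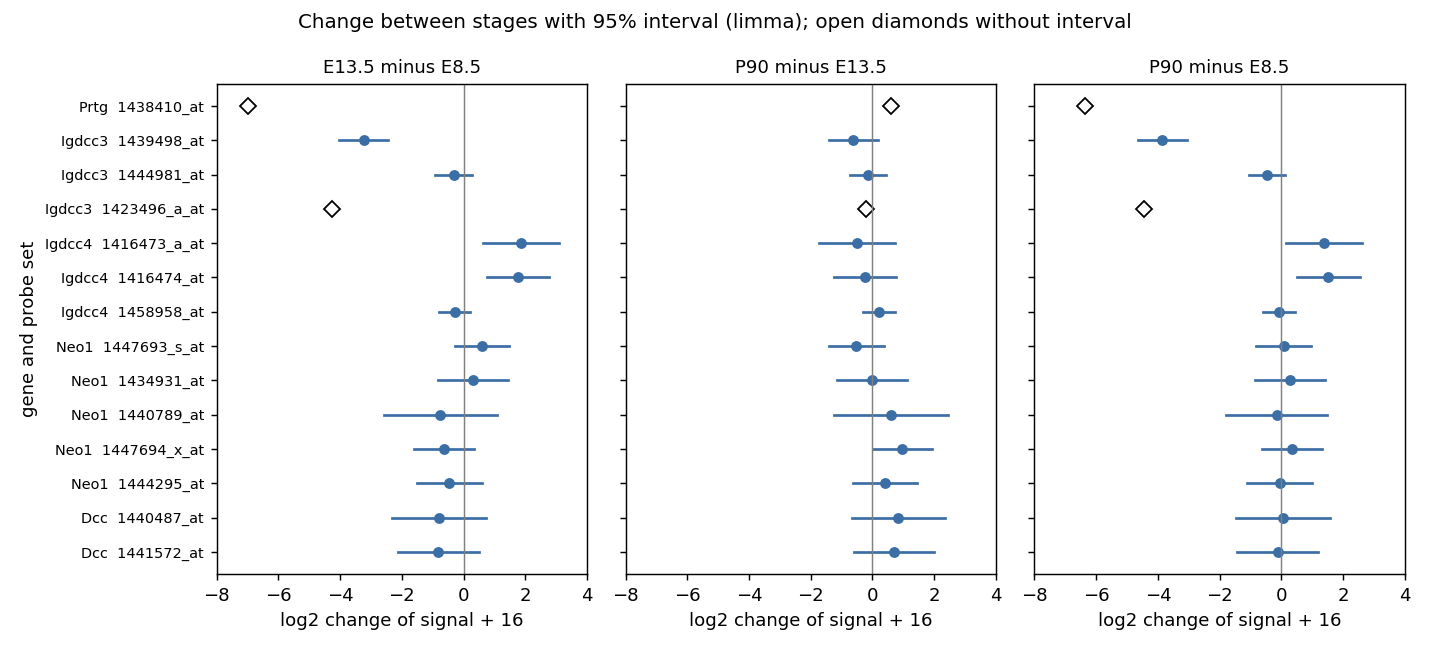
Log2 change of each family probe set that passed the filter in each comparison, with limma's 95% interval as a bar and 0 as a vertical line. Open diamonds have no interval: Prtg, whose change chose the family, and Igdcc3 1423496_a_at, which passed the filter through its E8.5 arrays alone. The interval of Igdcc3 1439498_at lies below 0 and those of 2 Igdcc4 probe sets above 0 in both comparisons with E8.5. The intervals are not adjusted for the number of probe sets, and Igdcc4 1416473_a_at was not called at P90 against E8.5 (limma, adjusted p = 0.108).

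Genes with the most similar pattern were found by the root mean square difference of log2 values over the 9 arrays, each gene centred on its own mean, among 12755 other genes with no empty cell. Closest to Prtg were Wnt1 (1.04), a secreted signal of the dorsal neural tube, Tfap2c (1.08) and Sall4 (1.14), both transcription factors of early embryonic cells, then Inava (1.21) and Mtm1 (1.36). From the youngest to the oldest stage, mean signals of Wnt1 were 480, 5.37 and 3.93, and those of Sall4 were 418, 5.69 and 4.93. Igdcc3 stood at place 23 in the list of Prtg, at 1.58, while Prtg stood at place 3342 in the list of Igdcc3. The fall of Prtg, which chose the family, enters both places, so nothing is read from them. Closest to Igdcc3 were Exo1 (0.27), a DNA exonuclease, Sp5 (0.28), a transcription factor of Wnt-responding cells, the de novo DNA methyltransferase Dnmt3b (0.33), the nuclease and helicase Dna2 (0.34) and the centromere gene Cenpu (0.37). Exo1 went from 985 through 75.6 to 35.3, and Dnmt3b from 1363 through 134 to 60.3. Closest to Igdcc4 were Jun (0.23), a subunit of the AP-1 transcription factor, Dram2 (0.25), Stx7 (0.27), Micall1 (0.29) and Cd99l2 (0.32). Jun had means of 261, 995 and 878. Distances were larger for Prtg than for the other 2 members, and likeness over 9 arrays from 3 stages says no more than that levels were high on the same arrays.

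Of the ligands of these receptors, 6 of 9 listed genes were tested. At E13.5 against E8.5, Rgma and Ntn1 fell and Ntn4 rose, and at P90 against E8.5 Draxin fell as well. Rgma, a membrane-anchored ligand of neogenin, had stage means of 208 ± 52.1, 40.9 ± 18.9 and 16.3 ± 3.67 from the youngest to the oldest (SD, n = 3 each), log2 changes against E8.5 of -2.01 (limma, adjusted p = 0.000989) and -2.78 (adjusted p = 6.70e-05). Ntn1, the netrin that Dcc binds, was empty on 1 E8.5 array, read 390 and 670 on the other 2, and read 65.8 to 75.3 at E13.5 and 48.7 to 121 at P90. Its change was -2.62 at E13.5 (adjusted p = 0.00154) and -2.59 at P90 (adjusted p = 0.00117). Ntn4, a netrin of basement membranes, went from 13.8 ± 2.39 to 47.6 ± 16.9 and 85.1 ± 42.1, changes of 1.06 (adjusted p = 0.0401) and 1.69 (adjusted p = 0.00265). Draxin, a repulsive cue that binds Dcc, read 188 to 424 at E8.5, 113 and 309 on the 2 E13.5 arrays with a value, and 18.7 to 27.4 at P90. Its fall was -2.42 from E13.5 to P90 (adjusted p = 0.00757) and -2.87 from E8.5 to P90 (adjusted p = 0.000706).

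Rgmb, with 2 empty cells, and Hjv were not called in any comparison, and Ntn3, Ntn5 and Cbln4 did not pass the filter. Hjv, the RGM of iron regulation, read 38.5 to 66.4 over all arrays. The list had a median of -0.35, -0.41 and -1.89 in the 3 comparisons, with 1 higher and 2 lower (of all genes, 9.27% and 7.22%), 0 higher and 1 lower (3.54% and 5.94%), and 1 higher and 3 lower (10.9% and 12.5%). Without E8.5 replicate 2 or 3, 1 ligand was called at E13.5 against E8.5, and the 1 call at P90 against E13.5 was lost without E13.5 replicate 1 or 3.

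Of 6 other netrin receptors and coreceptors tested of 9, Dscam rose at E13.5 and Cdon fell. Dscam, a receptor that also binds netrin-1, went from 112 ± 39.4 to 317 ± 52.5 and back to 132 ± 18.5 (1.41, adjusted p = 0.0113, and from E13.5 to P90 -1.16, adjusted p = 0.0444, by limma). Cdon, a coreceptor of hedgehog signalling that binds neogenin, went from 948 ± 220 to 263 ± 69.2 and 166 ± 69.5, changes against E8.5 of -1.80 (adjusted p = 0.0119) and -2.47 (adjusted p = 0.00148). Unc5c, Boc, Unc5b and Mcam were not called in any comparison. The 2 calls at E13.5 against E8.5, the 1 at P90 against E13.5 and the 1 at P90 against E8.5 stand beside 16.5%, 9.48% and 23.3% of all genes. Unc5a and Unc5d did not pass the filter, and Adora2b was not analysed here. The list's medians were 0.69, -0.11 and 0.61. Both calls at E13.5 against E8.5 were lost without E8.5 replicate 2 or 3, and the Dscam call at P90 without E8.5 replicate 2 or 3, replicate 1 or 3 of the E13.5 arrays, or replicate 2 or 3 of the P90 arrays. Over the whole span, the 1 call became 2 without E13.5 replicate 2 or P90 replicate 1.

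Other receptors with immunoglobulin and fibronectin type III domains were described from 20 genes, 18 of them tested. At E13.5 against E8.5, 8 were called higher and 0 lower (median 1.49), where 9.27% of all genes were called higher. The axonal contactin Cntn1 (17.5 to 1938, log2 change 5.31, adjusted p = 0.00125) and the adhesion molecule Ncam2 (17.0 to 623, 4.21, adjusted p = 7.81e-05) were among them. So was the contactin Cntn2, with means of 10.8, 1148 and 9.87, but it passed the filter through its E13.5 arrays alone, so its rise and its fall to P90 are no support for a change of the list. From E13.5 to P90, 0 were higher and 5 lower (median -1.14), where 3.54% of all genes were higher and 5.94% lower, with Cntn2, Cntn4 (377 to 27.8) and L1cam (3996 to 1100) among them. That count was 2 without E13.5 replicate 1 or 3 and 3 without P90 replicate 3. At P90 against E8.5, 5 were higher and 1 lower (3 calls without P90 replicate 3), where 10.9% and 12.5% of all genes were. Among the rises were Chl1 (3.32), Robo4 (2.12) and Ncam2 (2.01), and the axon receptor Robo2 was the fall (-1.74, limma, adjusted p = 0.0294). Robo4 is also among the endothelium markers summed above, and the part of endothelium in its rise was not tested.

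Downstream of Dcc and neogenin, 21 of 24 listed signalling genes were tested, and 1, 3 and 0 were called in the 3 comparisons, where 16.5%, 9.48% and 23.3% of all genes were. At E13.5 against E8.5 the call was Prkca, a protein kinase C, which rose from 90.5 to 1698 (3.92, adjusted p = 0.000226). At P90 against E13.5 Prkca fell (-2.67, adjusted p = 0.00308) with Ablim1, an actin-binding protein (1170 to 106, -3.01, adjusted p = 0.00421), and Dock1, an activator of Rac, rose (145 to 889, 2.40, adjusted p = 0.0116). At P90 against E8.5 none of the 21 was called by limma, and 5 had an unadjusted p under 0.05. Calls rose to 7 with the Actb difference as a covariate, 7 with quantile normalization and 4 with only those 2 stages fitted. In that comparison 6 were called without E13.5 replicate 2, 3 without P90 replicate 1, 2 without E13.5 replicate 1 and 1 without P90 replicate 3. Without E13.5 replicate 2 the other comparisons had 3 and 5 calls. The list's medians were -0.10, -0.26 and -0.37. Of 8 genes of receptor cleavage and dependence tested of 10, only Adam10, a protease that sheds receptor ectodomains, was called. It rose from 884 to 3090 at E13.5 (1.68, adjusted p = 0.0481) and fell to 682 at P90 (-2.12, adjusted p = 0.0262), with 1 empty cell. The rise was lost without any 1 of the E8.5 arrays, replicate 1 or 3 of the E13.5 arrays, or replicate 2 of the P90 arrays. The fall was lost without replicate 2 or 3 of E8.5, 1 or 3 of E13.5, or 2 or 3 of P90. At P90 against E8.5, 0 of the 8 were called by limma, with 2 at an unadjusted p under 0.05, and 1 was called without E8.5 replicate 3 or E13.5 replicate 2 and 2 without E13.5 replicate 1. The medians were 0.19, 0.40 and 0.29. Dock1, Adam10 and Robo2 were chosen after their values were seen. Trim67 of the signalling list did not pass the filter, and Ptk2 and Pak1 were not analysed here.

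Of the 2 genes listed as partners of protogenin, Radil, an effector of the small GTPase Rap1, had its lowest mean at E8.5, the stage where Prtg was high, though its lowest single value was on a P90 array, at the floor of 1. Its stage means were 4.92 ± 3.04, 179 ± 74.0 and 42.2 ± 43.6 (SD, n = 3 each), changes of 3.15 (adjusted p = 0.00207) from E8.5 to E13.5 and -2.02 (adjusted p = 0.0358) from E13.5 to P90. The second call was lost without any 1 of the E8.5 arrays, replicate 2 or 3 of the E13.5 arrays, or replicate 1 or 3 of the P90 arrays. Dnajb11, the chaperone ERdj3, was above the filter level on all arrays (1035 ± 126, 747 ± 661 and 881 ± 506) and was not called. Neither was called at P90 against E8.5, and 1 was without P90 replicate 1.

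**Figure D5:**
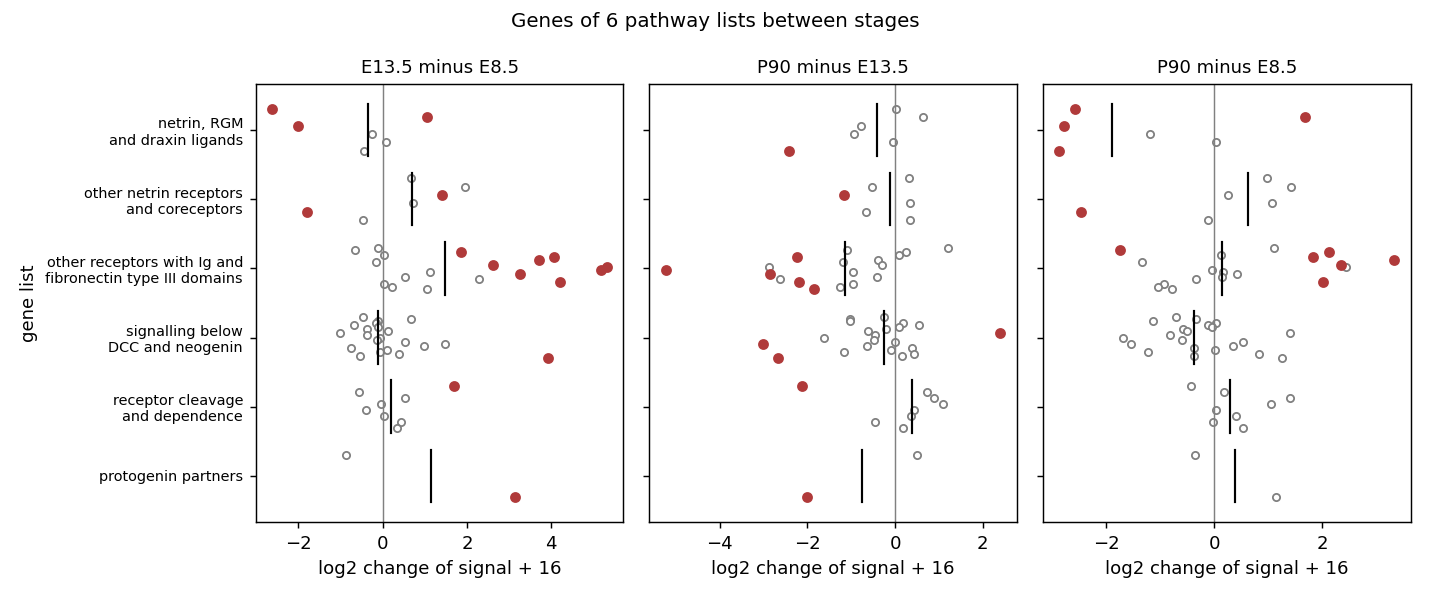
Log2 change of each tested gene of the 6 pathway lists in each comparison, with 1 point per gene, filled in red where called at an adjusted p under 0.05, and the list median as a black line. The filled points of the receptors with immunoglobulin and fibronectin type III domains lie on the higher side at E13.5 against E8.5 (8 genes) and on the lower side at P90 against E13.5 (5 genes). Both counts include Cntn2, which passed the filter through its E13.5 arrays alone and is no support for a change of the list.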

How the data were processed

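Total RNA of laser-captured mouse cells was measured on 9 Affymetrix arrays, 3 at each of E8.5, E13.5 and P90, from biotin-labelled cRNA per the labels' protocols. Each deposited value is the intensity of 1 probe set on 1 array; the values run from 1 upwards and are not logarithms. MAS5, GCOS, RMA and GCRMA are named, without role or version, in the submitters' processing notes, so which of them made the values, and how they were scaled, is not given in the sources used here. Of 405909 cells, 8048 (1.98%) were empty.

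Of 45101 probe sets, 64 were controls, 932 had several gene symbols and 9160 had none; the 34945 with 1 symbol were used. No scaling was added, and values were taken as log2(signal + 16). A probe set was tested where it passed the 40th percentile (26.1 in signal) on 3 or more of the 9 arrays and had at least 2 values per stage, which left 24013 probe sets and 13748 genes (brightest probe set per gene). Stages were compared with limma 3.58.1 in R 4.3.3 (two-sided moderated test from lmFit and eBayes, variance trend on, 6 residual degrees of freedom), with Benjamini-Hochberg adjustment over all genes or all probe sets. The fit was tested on simulated data. The number of arrays limits the precision.

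The family, the 6 pathway lists and the 12 marker lists were chosen with earlier results of these data known. Lists were described by counts and medians with no set test. Named list genes were the ligands and protogenin partners. Per comparison, up to 3 called genes per list were also named, with no empty value and the largest change in the direction of most calls. Called genes of the pathway lists named outside this rule are said to be so, and the rest were named only as not called or not tested. Same-numbered replicates of different stages deviated from their stage means with r of -0.31 to 0.42 (median -0.05). For differently numbered ones r was -0.41 to 0.46 (median 0.05). With 3 arrays per stage this cannot show whether the numbers paired the samples, and the main fit did not pair them. The alternatives were 16 other settings and leaving out each of the 9 arrays. Promoter sequences are from RefSeq on GRCm38.p6.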

Additional observations from a re-analysis of the deposited data

How the results depend on the processing

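Each of the 15 family changes was recomputed under 25 alternatives. The changes of Prtg and Igdcc3 against E8.5 kept their direction in all 25, Igdcc3 with a call in each (-4.26 to -2.60 at E13.5 and -4.46 to -2.93 at P90, the lowest from a probe set that passed the filter through E8.5 alone), and Prtg was -8.07 to -5.55 and -6.99 to -5.29. The Igdcc4 call at E13.5 was lost in 11 of 25, among them centring each array on its median (adjusted p = 0.0522), no filter (0.0612), the mean of its probe sets (0.0516) and a required change of at least 2-fold (0.643). With the replicate number as a block it was lost too (adjusted p = 0.0503), with 2151 genes called in place of 2267, 1239 in place of 1303 and 3172 in place of 3209 in the 3 comparisons, and no other family call changed. Of the pathway lists, the block took Adam10's rise and 1 of 3 ligand calls at E13.5 against E8.5, added 1 other receptor there (3 in place of 2) and called 1 signalling gene at P90 against E8.5. Igdcc4 at P90 against E8.5 passed without P90 replicate 3 (1.88, adjusted p = 0.0396). The family count at P90 against E13.5 was 0 to 1 when single arrays were left out.

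Changes that were not called could turn sign. For Neo1 this was so with its most variable probe set (-0.76 up to E13.5, 0.60 from there to P90 and -0.15 over the whole span), with the mean of its probe sets (-0.11 and 0.21 for the first 2 of these) and with median centring (-0.066 over the whole span). For Dcc at P90 against E8.5 it was so with median centring (-0.094), a pseudocount of 1 (-0.12) and the mean of its probe sets (-0.034). Prtg at P90 against E13.5 was -1.12 where the 2 stages were fitted alone, since another probe set, empty at E8.5, then represented it. Leaving out single arrays gave -1.06 to 0.0092 for Igdcc4 at P90 against E13.5, and -0.080 to 0.35 for Neo1 and -0.65 to 1.04 for Dcc at P90 against E8.5. The cause of these moves was not tested.

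Counts of called genes fell to 551, 263 and 845 with a required 2-fold change, and at P90 against E13.5 were 831 with only those stages fitted and 2046 with the Actb covariate. Leaving out single arrays gave 1273 to 2822, 583 to 1703 and 1955 to 3888. Median centring moved the median of all genes to -0.08, -0.10 and -0.15 and the split of higher to lower calls to 1119 and 1115 (from 1275 and 992) and, at P90 against E8.5, to 1262 and 2068 (from 1497 and 1712).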
